A study of Drosophila melanogaster with 10 samples.

Results

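The genes described are 10 that act in fly blood cells (hemocytes) or build the basement membrane: Hml, Pxn, Ppn, Col4a1, vkg, LanA, LanB1, LanB2, SPARC and srp. They were taken by gene symbol from the annotation of the array, which names 10845 genes by a probe set of their own, and all 10 were found, on 11 probe sets. Transcript levels had been measured in whole adult females of Drosophila melanogaster from 5 lines selected for resistance to heat and 5 unselected control lines, with 1 RNA sample and 1 array per line. The selected lines and the control lines are independent lines per the series design; the sources used here state no age, strain, mating status or treatment before sampling. All 10 genes were bright enough to be tested, among 10960 features in all.

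The basement membrane is the thin sheet of extracellular matrix that lines muscle, gut, fat body, ovary and other tissues of the fly. Collagen IV and laminin form its networks, and further matrix proteins bind to or cross-link them. In the fly much of this matrix is secreted by hemocytes and fat body into the hemolymph and laid down on the tissues, and follicle cells of the ovary make their own. The GATA transcription factor Serpent (srp) is needed to form both hemocytes and fat body in the embryo. In whole-fly RNA, fewer cells of a type and less RNA per cell cannot be told apart.

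Levels are given as log2(intensity + 1) on each array, and each difference is selected minus control. The arrays had median intensities of 41.9 to 48.3. Probe sets for transcripts of other organisms, which have no target in the fly, lay between 2.13 and 3.64, and each of the 10 genes had a probe set well above that range on every array. Line 1 of both groups had the largest excess of signal at the 3' end over the 5' end on the control transcripts of the fly. In line 1 this excess was 2.76 (log2) in the selected group and 2.27 in the control group. It was 1.43 to 1.74 in the other selected lines and 1.72 to 1.93 in the other control lines. Results are therefore also given without line 1, and the cause of the excess was not tested.

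No gene of the 10 passed limma's test at an adjusted p under 0.05, and neither did any other feature (0% of 10960). Of the 10 genes, 9 averaged higher in selected than in control lines, against 53.7% of all features, and srp had a lower one. At an unadjusted p under 0.05 stood 6 of the 10: Hml, Pxn, Ppn, Col4a1 and vkg higher, and srp lower. Among all features 9.52% reached that level, 5.55% higher and 3.97% lower. The genes were chosen with earlier results of these data known, so the share is a description. The median difference was 0.25 over the 10 genes and 0.0075 over all features. The groups overlapped for each of the 10, where 1.59% of all features had groups that did not overlap. In the fit that left out line 1 of both groups, the same 6 of the 10 were at an unadjusted p under 0.05, against 13.8% of all features, 8.28% higher and 5.57% lower.

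**Figure D1:**
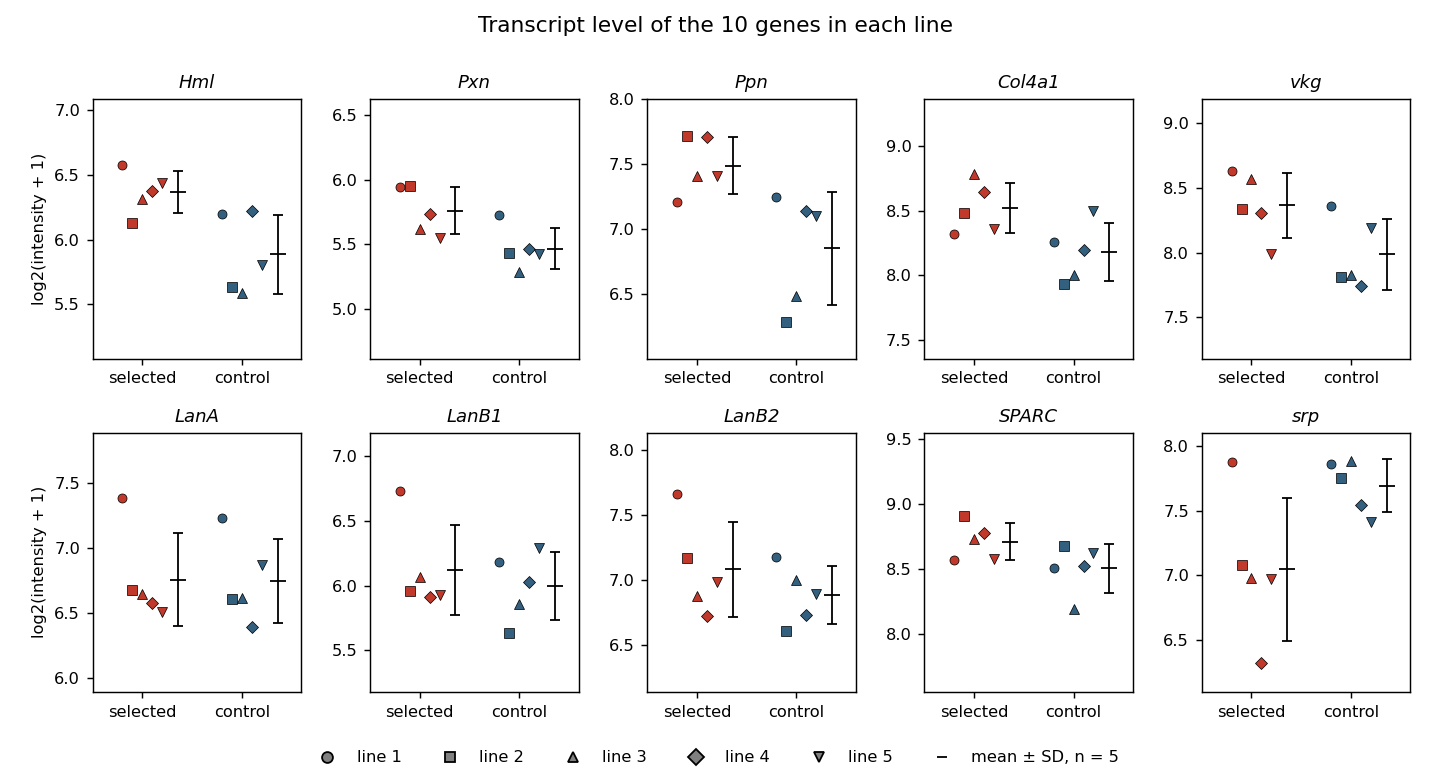
Level of each gene, log2(intensity + 1), in the 5 selected lines and the 5 control lines; symbols are lines, and bars are the mean ± SD. Every panel spans the same range of 2 log2 units. Hml, Pxn, Ppn, Col4a1 and vkg sit higher in the selected lines with overlap, the laminin genes are highest in selected line 1, and srp is below every control line in 4 selected lines.

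Hml encodes hemolectin, a large secreted clotting protein related to von Willebrand factor and used as a hemocyte marker. Its level was 6.58, 6.13, 6.31, 6.37 and 6.44 in selected lines 1 to 5, against 6.20, 5.63, 5.59, 6.22 and 5.80 in control lines 1 to 5. In 4 selected lines it was above every control line, and selected line 2 lay below control lines 1 and 4. The difference was 0.48 ± 0.14 (SE, n = 5 each), or 1.39-fold, with an unadjusted p of 0.00541 and an adjusted p of 0.306 from limma.

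Pxn encodes peroxidasin, an extracellular peroxidase of hemocytes that forms cross-links within the collagen IV network. It had levels of 5.94, 5.95, 5.62, 5.74 and 5.55 in selected lines 1 to 5, and of 5.73, 5.43, 5.29, 5.46 and 5.43 in control lines 1 to 5. The highest control value came from line 1 and reached into the selected range, while the other 4 control lines lay below every selected line. The difference was 0.29 ± 0.10 (SE, n = 5 each; limma unadjusted p = 0.0169, adjusted p = 0.391), and 0.23 with quantile normalization of the arrays (unadjusted p = 0.0656).

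Other genes used as hemocyte markers were looked at as a list of 21, without the 10. Of these 18 were measured, and 0 were at an unadjusted p under 0.05 in limma, where 9.52% of all features were. Higher means were seen for 14 and lower means for 4, against 53.7% higher among all features. The median difference was 0.048. The smallest p values belonged to ush, a cofactor of GATA factors, at -0.15 ± 0.080 (SE, unadjusted p = 0.0816), Tep4, a secreted thioester protein, at 0.28 ± 0.16 (unadjusted p = 0.101), and Nplp2 at -0.15 ± 0.10 (unadjusted p = 0.165). The phagocytic receptor genes of hemocytes were close between the groups: NimC1 averaged 4.82 ± 0.12 in selected and 4.73 ± 0.073 in control lines (SD, n = 5 each), and crq averaged 6.90 ± 0.30 in selected and 6.89 ± 0.37 in control lines. The receptor gene eater was near the level of probe sets without a fly target, at 3.71 ± 0.12 in selected and 3.69 ± 0.15 in control lines. Also near that level were PPO1 (3.75 in selected and 3.61 in control lines) and lz (3.97 and 3.93). Of the 18, 1 averaged at most 3.64, the top of the range of those probe sets. When line 1 of both groups was left out, 2 of the 18 were higher at an unadjusted p under 0.05, where 8.28% of all features were.

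Ppn encodes papilin, a glycoprotein of the basement membrane, and its brighter probe set had the largest positive difference of the 10. Its bright probe set read 7.21, 7.72, 7.41, 7.71 and 7.41 in selected lines 1 to 5, against 7.25, 6.29, 6.48, 7.14 and 7.10 in control lines 1 to 5. Control lines 2 and 3 were lowest, and control line 1 was just above selected line 1, so that 4 selected lines exceeded every control line. The difference was 0.64 ± 0.19 (SE, n = 5 each), or 1.56-fold (limma unadjusted p = 0.00633, adjusted p = 0.307). The name of this probe set marks it as one whose probes can match more than 1 transcript. A second probe set of Ppn was dim, between 3.27 and 3.89 on the 10 arrays, with means of 3.53 in selected and 3.37 in control lines, a difference of 0.16. With the mean of both probe sets the difference of Ppn was 0.40, below the 0.48 of Hml.

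Fly collagen IV is built from the chains encoded by Col4a1 and vkg (viking), which are neighbours on chromosome arm 2L with 0 protein-coding genes between them in the RefSeq table of assembly Release 6 plus ISO1 MT. Col4a1 had levels of 8.32, 8.48, 8.78, 8.65 and 8.36 in selected lines 1 to 5, and of 8.26, 7.94, 8.00, 8.20 and 8.50 in control lines 1 to 5. For vkg they were 8.63, 8.33, 8.57, 8.30 and 7.99 in selected lines 1 to 5, against 8.36, 7.81, 7.83, 7.74 and 8.19 in control lines 1 to 5. In both genes every selected line was above the control median, and 2 selected lines were above every control line. The difference was 0.34 ± 0.12 for Col4a1 (SE, n = 5 each; limma unadjusted p = 0.0175, adjusted p = 0.391). It was 0.38 ± 0.15 for vkg (limma unadjusted p = 0.0266, adjusted p = 0.434), which kept an unadjusted p under 0.05 in 5 of the 10 fits that left out 1 line.

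The log2 difference of Col4a1 over vkg within each array showed no detectable shift between the groups. It was 0.15 ± 0.27 in the selected and 0.19 ± 0.21 in the control lines (SD, n = 5 each; exact two-sided permutation p = 0.810), and lowest in line 1 of both groups, at -0.30 in the selected and -0.10 in the control line. Across the 10 lines the levels of both genes went together, with a Pearson r of 0.71 (permutation p = 0.0247, adjusted p = 0.0318 over 6 pairs of genes) and a Spearman rho of 0.58 (permutation p = 0.0894, adjusted p = 0.129). An r of this size was not particular to the pair: vkg ranked 409 among the 9671 other named genes by r with Col4a1. With each group centred on its own mean r was 0.49, and without the lines farthest from the median of Col4a1, control line 2 and selected line 3, it was 0.52. Leaving out line 1 of both groups gave an r of 0.92, and 0.83 after centring, over 8 lines.

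SPARC is a calcium-binding glycoprotein that binds collagen IV and is needed for its deposition. Its level was 8.57, 8.91, 8.73, 8.77 and 8.58 in selected lines 1 to 5, against 8.50, 8.68, 8.19, 8.52 and 8.62 in control lines 1 to 5. In 3 selected lines it was above every control line, and control line 3 was the lowest of all. The difference of 0.21 ± 0.10 (SE, n = 5 each) was smaller than for the collagen genes and its 95% interval, from -0.016 to 0.43, included 0 (limma unadjusted p = 0.0659, adjusted p = 0.573). Leaving out control line 3 gave a difference of 0.13. The unadjusted p was 0.0377 when control line 2 was dropped and 0.0445 when selected line 1 was.

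**Figure D2:**
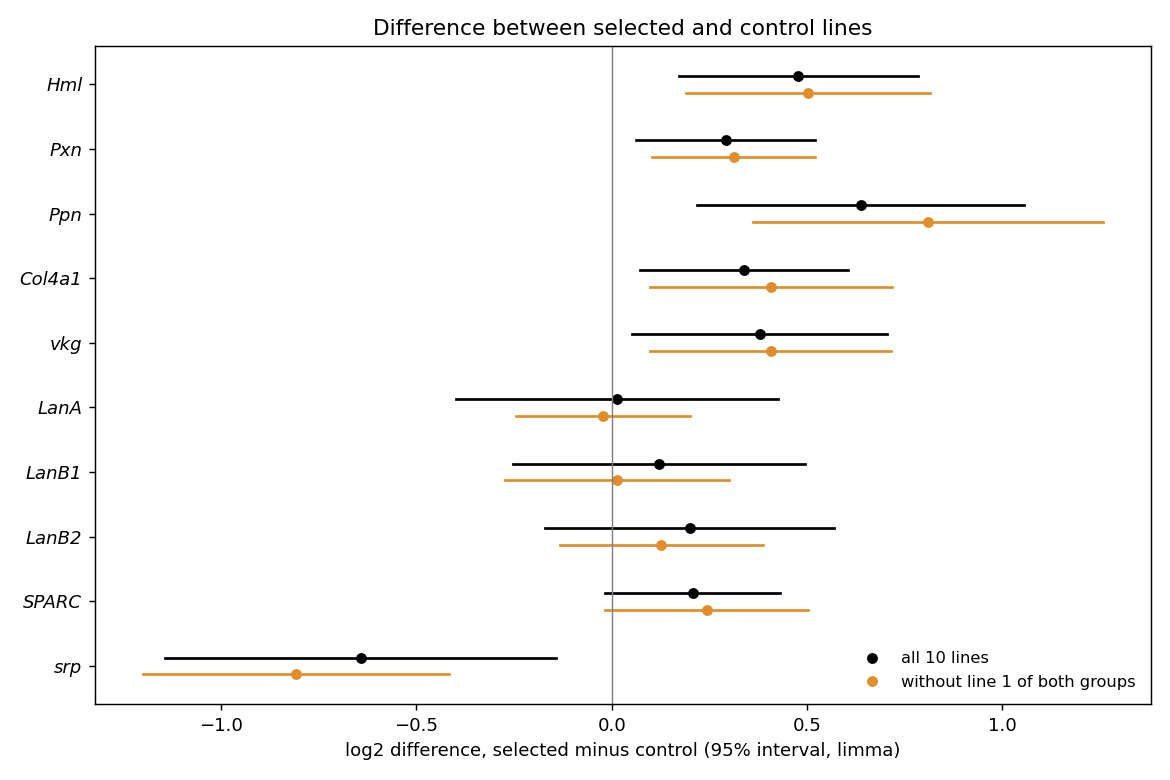
Difference between selected and control lines, selected minus control on the log2 scale, with limma's 95% interval, for all 10 lines (black) and without line 1 of both groups (orange). The intervals of Hml, Pxn, Ppn, Col4a1 and vkg lie above 0 and that of srp below 0 in both fits, while those of the laminin genes and SPARC include 0.

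Laminin is a trimer of an alpha, a beta and a gamma chain, here encoded by LanA, LanB1 and LanB2. LanA read 7.39, 6.68, 6.64, 6.57 and 6.51 in selected lines 1 to 5, against 7.24, 6.61, 6.62, 6.40 and 6.87 in control lines 1 to 5. LanB1 read 6.73, 5.96, 6.06, 5.91 and 5.93 in selected lines 1 to 5, against 6.18, 5.63, 5.86, 6.03 and 6.29 in control lines 1 to 5. LanB2 read 7.67, 7.17, 6.88, 6.72 and 6.98 in selected lines 1 to 5, against 7.18, 6.61, 7.00, 6.73 and 6.90 in control lines 1 to 5. Selected line 1 had the highest value of all 10 lines for each chain, and control line 1 was highest among the control lines for LanA and LanB2. The other 4 selected lines lay within the control range for each chain.

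The differences of the laminin genes were within the spread between lines. They were 0.012 for LanA (95% interval -0.40 to 0.42), 0.12 for LanB1 (-0.25 to 0.50) and 0.20 for LanB2 (-0.17 to 0.57), with limma adjusted p of 0.909 to 0.999. The intervals reach the differences seen for the collagen IV genes, and a difference between collagen and laminin genes was not tested. Without line 1 of both groups the differences were -0.022, 0.014 and 0.13 for LanA, LanB1 and LanB2. With the 3' excess as a covariate they were 0.067, 0.16 and 0.25, and LanB2 then had an unadjusted p of 0.0274 from limma.

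**Figure D3:**
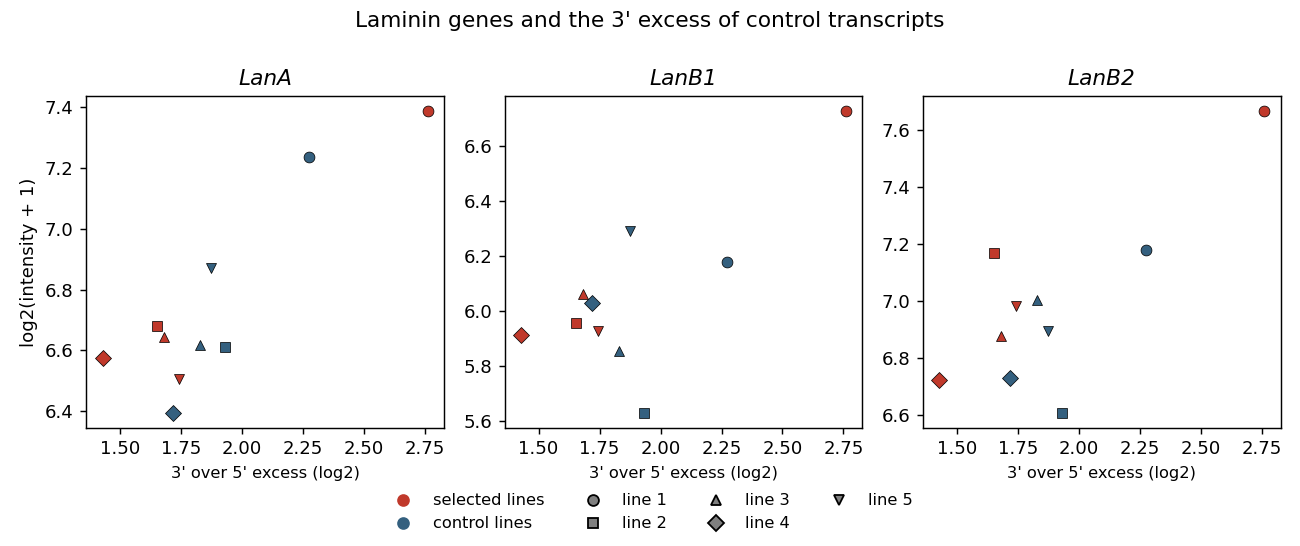
Level of each laminin gene, log2(intensity + 1), against the 3' over 5' excess of fly control transcripts, log2, on each array; colours are groups and symbols are lines. Selected line 1, with an excess of 2.76, holds the highest value in all 3 panels, and the lines with an excess below 2 show no separation of the groups.

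The laminin chains went together across the 10 lines, with r of 0.79 for LanA and LanB1, 0.80 for LanA and LanB2 and 0.79 for LanB1 and LanB2 (permutation p of 0.00804, 0.00585 and 0.0127, adjusted p of 0.0241, 0.0241 and 0.0254). Spearman's rho was 0.67, 0.71 and 0.55 for the same pairs (permutation p of 0.0388, 0.0269 and 0.108, adjusted p of 0.116, 0.116 and 0.129). These relations rested on line 1. Over the 8 other lines r was 0.44, 0.30 and 0.31 for the same pairs. Without the lines farthest from the median on the x axis, r was 0.44 and 0.30 for LanA with LanB1 and LanB2 (control line 1 and selected line 1 left out) and 0.087 for LanB1 and LanB2 (control line 2 and selected line 1 left out). The ratios of the chains within an array did not differ detectably between the groups (exact two-sided permutation p of 0.389 for LanA to LanB1, 0.151 for LanA to LanB2 and 0.540 for LanB1 to LanB2).

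The GATA factor gene srp was the 1 gene of the 10 with a lower mean in the selected lines. Its level was 7.88, 7.08, 6.98, 6.32 and 6.97 in selected lines 1 to 5, against 7.86, 7.75, 7.88, 7.54 and 7.41 in control lines 1 to 5. Selected lines 2 to 5 were below every control line, whereas selected line 1 was as high as the highest control line. The difference was -0.64 ± 0.23 (SE, n = 5 each; limma unadjusted p = 0.0162, adjusted p = 0.385), which is a level 0.640 times that of the control lines. Among the selected lines srp was highest in line 1, with the largest 3' excess (2.76), and lowest in line 4, with the smallest (1.43). With the 3' excess as a covariate, chosen after seeing the data, the difference was -0.58 (limma unadjusted p = 0.000744). In that fit 12.2% of all features were at an unadjusted p under 0.05. The part of the 3' excess in the srp values was not tested. The groups of srp did not overlap once line 1 of both groups was left out, with a difference of -0.81 ± 0.17 (SE, n = 4 each; limma unadjusted p = 0.00121, adjusted p = 0.0991). Of all features, 7.83% had groups that did not overlap in those 8 lines; Pxn and Ppn were also among them, both higher.

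The other GATA factor genes and their cofactor gave 0 of 5 at an unadjusted p under 0.05 in limma (9.52% of all features), with a median difference of 0.022. Among these, ush had the smallest p, with means of 5.39 ± 0.12 in selected and 5.55 ± 0.11 in control lines (SD, n = 5 each). Of the 5, 2 averaged at most 3.64, the top of the range of probe sets without a fly target.

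The differences of Hml and srp had opposite signs, and the log2 difference of the genes within an array separated the groups. Hml minus srp was -1.30, -0.95, -0.67, 0.053 and -0.53 in selected lines 1 to 5, against -1.66, -2.12, -2.29, -1.33 and -1.61 in control lines 1 to 5. Every selected line was above every control line, by a small margin between selected line 1 and control line 4. The shift was 1.12 (exact two-sided permutation p = 0.00794, the smallest that 5 lines against 5 can give, adjusted p = 0.0476 over 6 such ratios). The ratio was chosen with the opposite differences of both genes known, so this p is not independent evidence, and with a pseudocount of 16 the adjusted p was 0.0952. For Hml minus Pxn the shift was 0.19 (exact two-sided permutation p = 0.246, adjusted p = 0.492).

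**Figure D4:**
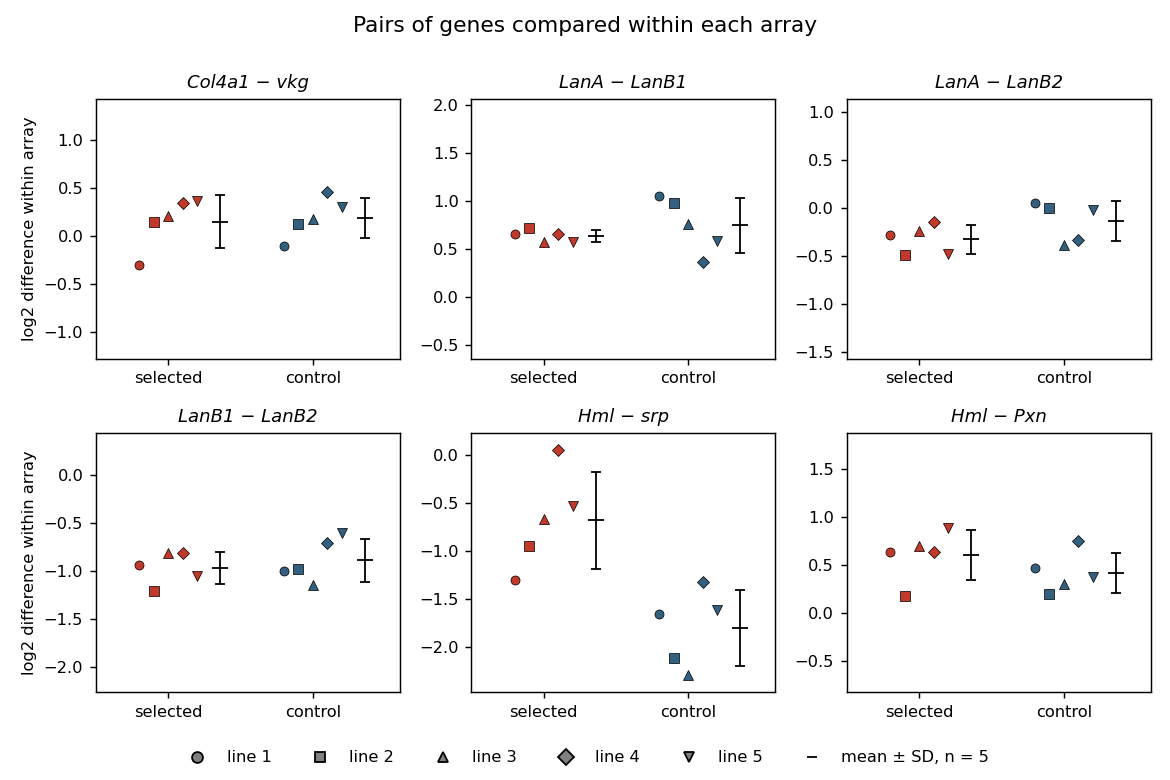
Log2 difference between the levels of 2 genes on the same array, in selected and control lines; symbols are lines, bars are the mean ± SD, and every panel spans the same range. Hml minus srp is above all control lines in the 5 selected lines, and the groups overlap in the other 5 panels.

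Across lines, Hml went with Pxn (r = 0.70, permutation p = 0.0265, adjusted p = 0.0318; rho = 0.61, permutation p = 0.0666, adjusted p = 0.129). By r with Hml, Pxn ranked 148 among the 9671 other named genes. Centred by group r was 0.40, without control lines 2 and 3, the lines farthest from the median of Hml, it was 0.46, and without line 1 of both groups it was 0.60 (exact permutation, adjusted p = 0.224) and -0.086 after centring. For Hml and srp r was -0.41 (permutation p = 0.241) and rho was -0.42 (permutation p = 0.232) over the 10 lines, and r was -0.084 without control lines 2 and 3. With each group centred on its own mean it was 0.14 over the 10 lines, of opposite sign. Without line 1 of both groups r was -0.82 for Hml and srp (exact permutation, adjusted p = 0.0388), and -0.44 once each group was centred on its own mean. The permutations moved lines between the groups, and the genes differ between the groups in opposite directions. This p therefore cannot separate a relation between lines from the known group differences.

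Of 9662 other named genes, those with the most similar levels over the 10 lines were the juvenile hormone epoxide hydrolase gene Jheh2, CG17752 and Nubp2 for Hml (r of 0.87, 0.86 and 0.85). For Col4a1 they were Nplp3, CG7203 and Prm (r of 0.98, 0.97 and 0.96). Prm encodes paramyosin, a protein of muscle thick filaments, and averaged 10.42 in the selected and 9.60 in the control lines. For srp they were CG15571, CG7011 and Naa40 (r of 0.96 for each). Likeness to Col4a1 was 0.83 for Ppn, 0.71 for vkg and 0.61 for SPARC, and -0.75 for srp. Their ranks were 132, 409, 626 and 9528 among 9671 named genes, the other members included. These are descriptions over 10 arrays, which share the group difference and the position of line 1.

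Further genes of the basement membrane and its handling were compared as lists. Over all 10 lines, 5.55% of all features were higher and 3.97% lower at an unadjusted p under 0.05. Of 7 other basement membrane components measured, 1 was at an unadjusted p under 0.05: trol, which encodes perlecan, the large heparan sulfate proteoglycan of the basement membrane. It had levels of 7.77, 7.74, 8.12, 7.99 and 7.71 in selected lines 1 to 5, and of 7.69, 6.81, 7.12, 7.00 and 7.60 in control lines 1 to 5. Every selected line was above every control line, as for 0.803% of all features. The margin was small, with 7.71 in selected line 5 and 7.69 in control line 1, and control line 5 came next. The difference was 0.62 ± 0.17 (SE, n = 5 each; limma unadjusted p = 0.00325, adjusted p = 0.267). A second probe set of trol was dim, between 3.31 and 3.83 on the 10 arrays, with means of 3.65 in selected and 3.63 in control lines, and the mean of both probe sets differed by 0.32. The median difference of the 7 components was 0.086, and Mp, which encodes the collagen Multiplexin, was at 0.15 ± 0.10 (SE, limma unadjusted p = 0.161).

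Among 7 matrix remodelling genes, 7 had higher means and 1 was at an unadjusted p under 0.05. Of all features, 53.7% had a higher mean and 5.55% were higher at that level. The 1 gene was Timp, which encodes the tissue inhibitor of metalloproteases. It read 7.52, 7.56, 7.16, 6.99 and 6.86 in selected lines 1 to 5, against 7.22, 6.50, 6.46, 6.56 and 6.84 in control lines 1 to 5. Control line 1 lay above 3 of the selected lines, and the other 4 control lines lay below all 5. The difference was 0.50 ± 0.18 (SE, n = 5 each; limma unadjusted p = 0.0151, adjusted p = 0.374). The list had a median of 0.055, and the means of 4 of its 7 genes were no higher than 3.64.

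**Figure D5:**
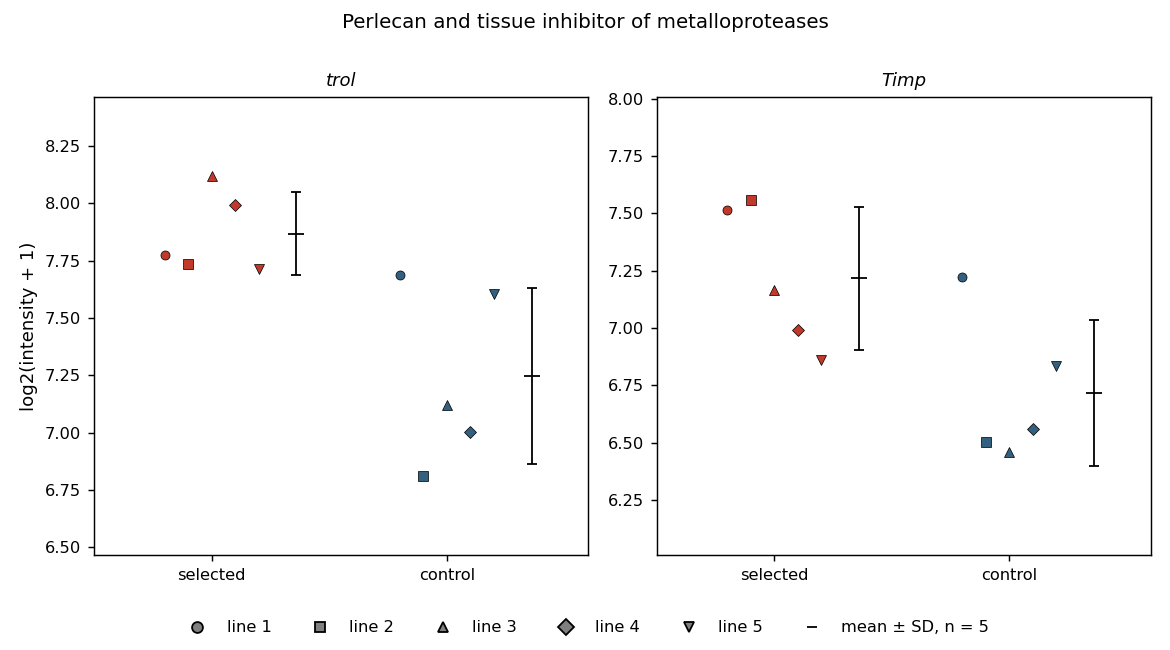
Level of trol and Timp, log2(intensity + 1), in the 5 selected and the 5 control lines; symbols are lines and bars are the mean ± SD. For trol the 5 selected lines, at 7.71 to 8.12, lie above the control lines, at 6.81 to 7.69; for Timp control line 1 overlaps the selected lines.

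Of 10 basement membrane receptor genes, 6 had higher and 4 lower means, and the median was 0.041. Of these 10, 2 averaged at most 3.64, the top of the range of probe sets without a fly target. The integrin alpha subunit gene scb was at -0.24 ± 0.10 (SE, n = 5 each; limma unadjusted p = 0.0420, adjusted p = 0.505), and 0 of the 10 were higher at an unadjusted p under 0.05. Of all features, 3.97% were lower and 5.55% higher at that level. Of 6 measured genes for folding, modification and secretion of collagen, 2 had higher and 4 lower means, with 0 at an unadjusted p under 0.05 and a median of -0.031. Plod, the lysyl hydroxylase that modifies collagen in the endoplasmic reticulum, led them at 0.25 ± 0.12 (SE, limma unadjusted p = 0.0701). In the fit without line 1 of both groups, 0 of the 10 receptor genes were at an unadjusted p under 0.05 in either direction, 1 of the 6 collagen handling genes was lower, and 2 of the 7 other components and 2 of the 7 remodelling genes were higher. In that fit 8.28% of all features were higher and 5.57% lower at that level.

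Markers of tissues that carry or make basement membrane also differed in level between the groups. Of all features, 53.7% had a higher mean, and 5.55% were higher and 3.97% lower at an unadjusted p under 0.05. Of 12 muscle markers measured, 12 had higher means and 9 were higher at an unadjusted p under 0.05 (median 0.91), and their summed intensity ran from 12531 to 26530 in the selected and from 5301 to 14456 in the control lines. Of 11 fat body and storage markers, 10 had lower means and 5 were lower at that level (median -0.24), and their sum ran from 51807 to 71581 in the selected and from 60994 to 73149 in the control lines. The yolk protein genes Yp1, Yp2 and Yp3, with control means of 14.73, 14.03 and 14.07, were the brightest of the 11 and dominated this sum. Yp2 and Yp3 were among the 5 lower genes (limma unadjusted p of 0.0339 and 0.00525). The tissue their transcripts came from cannot be told in whole-fly RNA, so the fat body and ovary lists are not separate measures of these tissues. Of the 11, 1 averaged at most 3.64, the top of the range of probe sets without a fly target. All 14 ovary and eggshell markers measured had lower means and 7 were lower at an unadjusted p under 0.05 (median -0.54), with sums of 50492 to 88863 in the selected and 86007 to 108545 in the control lines. Tropomyosin 2 (Tm2) differed by 0.91 ± 0.20, the storage protein gene Lsp2 by -3.49 ± 0.55 and the chorion gene Cp19 by -0.92 ± 0.22 (SE, n = 5 each), with 0 markers past an adjusted p of 0.05 in limma. Without line 1 of both groups, 12 of the 12 muscle markers were higher at an unadjusted p under 0.05. In that fit 4 of the 11 fat body and storage markers and 6 of the 14 ovary and eggshell markers were lower. Of all features, 8.28% were then higher and 5.57% lower. The part of these tissues in the differences of the hemocyte and basement membrane genes was not tested.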

How the data were processed

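The authors deposited a GCRMA intensity for each probe set, according to the submitters' processing notes, which name no version. The values ran from 0.830 to 32744, so their scale was taken as linear. GCRMA pulls dim probe sets toward a floor, so differences of dim genes are understated. Values were analysed as log2(intensity + 1). Probe sets above 3 on at least 5 of 10 arrays were kept, 44 control probe sets were left out, and the brightest probe set stood for a gene. Of 14010 probe sets, 12444 named 1 gene, 327 several and 1239 none; those with several or none were tested unnamed. Selected and control lines were compared by limma 3.58.1 under R 4.3.3, two-sided, with Benjamini-Hochberg adjustment over 10960 features; intervals are 95%. The 3' excess is the mean log2 difference of 3' and 5' probe sets of 3 fly control transcripts. Ratios used exact tests over 252 labelings, and correlations 100000 permutations (over 8 lines, every permutation). The permutations for correlations ran over both groups together, so their p values include any group difference. The test was checked on simulated data. The number of arrays limits the precision.

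Groups and line numbers came from the sample titles. The members, the lists and the tests were chosen with earlier results of these data known. Named genes were the 10 members, up to 3 per list by the smallest p, and the 3 genes most like Hml, Col4a1 and srp; NimC1, crq and eater were named with their values already seen. The sources do not say that line numbers pair the lines. Deviations of same-numbered lines from their group means correlated at 0.55, 0.21, 0.20, 0.35 and 0.027 for lines 1 to 5; numbers were not taken as pairs because 1 of the 5 was not over 0.1, and the fit with the number as a block is given among the alternatives.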

Additional observations from a re-analysis of the deposited data

Results flagged for a closer look

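Selected line 1 stood far from the other selected lines for 2 of the laminin genes. Its level was 7.39 for LanA, where the other 4 selected lines lay between 6.51 and 6.68, and 6.73 for LanB1, where they lay between 5.91 and 6.06. The gap to the nearest line was 0.805 and 0.814 of the range of the group, above the critical value of 0.71 for 5 samples. In all, 32 groups of 5 lines were looked at this way and 2 stood out, and chance marks about 5% of groups. The same array had the highest 3' excess on fly control transcripts (2.76), and the part of this in the laminin values was not tested.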

How the results depend on the processing

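With other pseudocounts, filters, normalization, probe set rules, variance models, a 3' excess covariate (chosen after seeing the data) or lines left out, 0 of the 10 genes passed an adjusted p of 0.05, and 5 to 7 were at an unadjusted p under 0.05, where 6.67% to 13.8% of all features were. The gene lost with quantile normalization was Pxn (0.23, unadjusted p = 0.0656). Over all features, 0 to 3 passed with 1 line left out (3 when it was control line 5, 1 when it was selected line 2) and 2 with line number as a replicate block, where the sources do not say that numbers pair the lines; 7 of the 10 genes, now with SPARC (unadjusted p = 0.0468), and 13.4% of all features were then at an unadjusted p under 0.05. LanA turned to -0.011 with quantile normalization and -0.022 without line 1 of both groups, and ran from -0.14 to 0.13 with 1 line left out; LanB1 ran from -0.031 to 0.19, and the GATA factor gene grn from -0.033 to 0.099. The shift of Col4a1 minus vkg ran from -0.11 to 0.074 and was 0.00035 without line 1 of both groups. For the within-array ratios, leaving out line 1 of both groups was not planned in advance. The shift of Hml minus srp ran from 0.94 to 1.28 with 1 line left out, and was 0.97 with a pseudocount of 16, 1.31 without line 1 of both groups and 1.12 with line numbers as a replicate block (adjusted p of 0.0952, 0.171 and 0.375); it passed an adjusted p of 0.05 in 4 of the 10 fits with 1 line left out, and the smallest exact p is 0.0286 for 4 lines against 4 and 0.0625 for sign flips over 5 pairs. Without line 1 of both groups, r was 0.44, 0.30 and 0.31 for LanA with LanB1, LanA with LanB2 and LanB1 with LanB2, and 0.60 for Hml with Pxn (adjusted exact permutation p of 0.224 to 0.488). For Hml with srp it was -0.82 (adjusted exact permutation p = 0.0388, which includes the group difference), and -0.44 when centred by group. With quantile normalization r was 0.65 for Hml with Pxn (adjusted permutation p = 0.0505). The causes were not tested.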
